A study of Arabidopsis thaliana with 4 samples.

Results

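The genes described here encode proteins of the large (60S) subunit of the cytosolic ribosome of Arabidopsis thaliana, without the acidic stalk proteins. They were chosen by locus, from a list of 60 nuclear loci in 27 protein families. A probe set annotated to the locus alone was found for 39 of the 60 loci, and these 39 loci, of 13286 loci with a probe set of their own on the array, fall in 20 families. Another 3 loci (AT1G74060 and AT1G74050 of RPL6, AT1G33140 of RPL9) were annotated only through probe sets of several genes and were given no value, and 18 had no annotated probe set. The families RPL3, RPL5, RPL8, RPL10, RPL11, RPL23a and RPL24 were therefore not represented. No locus had more than 1 probe set of its own, so taking the brightest one changed nothing.

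The study hybridized 4 RNA samples, each to its own Affymetrix ATH1 array. Non-stressed plants and plants under dehydration stress each gave a non-polysomal fraction, which holds messenger RNA that is free or bound by 1 ribosome, and a polysomal fraction, which holds messenger RNA with more ribosomes on it. The labels call the arrays NSNP (non-stress, non-polysomal), NSPS (non-stress, polysomal), DSNP (dehydration, non-polysomal) and DSPS (dehydration, polysomal), and give no accession, age, tissue, duration of stress or number of plants. No group was replicated, so no difference was tested, and values are described by their size.

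The large subunit holds the peptidyl transferase centre and the tunnel through which the new protein leaves. In Arabidopsis each of its proteins is encoded by a small family of paralogous genes, which are among the most strongly expressed genes of growing tissue. In mammals the translation of ribosomal protein messenger RNAs is controlled as a group through the TOR kinase, and polysome profiling is a usual way to see such control, because messenger RNAs that are poorly initiated shift from polysomes into the lighter fraction.

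Signals are the deposited intensities on a linear scale, and differences are given on the log2 scale, where 1 is a 2-fold difference. The polysomal ratio is the log2 of polysomal over non-polysomal signal. All arrays carry the same mean signal, so a ratio is relative to the average transcript and is not the share of a messenger RNA that sat on polysomes. In such bulk samples fewer cells of a type and less RNA per cell cannot be told apart. A probe set was called measured when its mean log2 signal over the 4 arrays reached the median of all probe sets other than controls, and 38 of the 39 loci passed. They were bright, at percentiles 72.5 to 99.1 of mean log2 signal. The locus that did not pass, AT3G48960 of the RPL13 family, had signals of 114.7 (NSNP), 89.2 (NSPS), 110 (DSNP) and 47.2 (DSPS), the last under the lower limit of 69.9. Counts over members are read beside the share of all 11373 measured probe sets that met the same rule and, because brightness moved those shares, also beside the 1399 measured probe sets at least as bright as the percentile 25 of the 38 loci.

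The array medians ran from 185.5 to 249.5. Across 46 loci with several measured probe sets, the difference between 2 probe sets of the same locus had an SD of 0.435 to 0.60 over the comparisons. These probe sets were dimmer than the members, with a median mean log2 signal of 9.07 against 11.64, so their SD is only a rough measure of the technical spread of the members. The 3 measured dehydration markers (COR47, LTI30 and LEA4-5) were higher under dehydration in both fractions, by 1.13 to at least 6.62. Of 9 listed leaf markers only Rubisco activase was measured, with signals from 19238 to 23856. No listed root marker was measured. PYK10 and EXPA7 did not reach the brightness filter, and the other root markers had no probe set of their own. The 5S ribosomal RNA control gave 4383 (NSNP), 846 (NSPS), 2966 (DSNP) and 1765 (DSPS). The ratio of 3′ to 5′ signal, a sign of RNA integrity, ran over the arrays from 1.97 to 2.58 for actin and from 0.726 to 1.12 for GAPDH. An older actin pair gave 3.08, 3.04, 5.21 and 9.67 on NSNP, NSPS, DSNP and DSPS and so moved with dehydration. An older GAPDH pair gave 2.24, 1.22, 1.83 and 1.08 and so moved with the fraction. Both ubiquitin pairs ran between 1.53 and 1.98. The part of these quantities in the results was not tested. The file headers place the non-stress arrays on 1 hybridization day and fluidics station and the dehydration arrays on another, so hybridization day and dehydration cannot be told apart.

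The first question was how the 60S transcripts were distributed between the fractions in non-stressed plants. They were widely spread. The 38 measured loci had polysomal ratios of up to 1.41, with a median of 0.09 (0.16 above the median of all measured probe sets). Of the 38, 7 were at least 2-fold higher in polysomal RNA, against 8.56% of all measured and 16% of the bright probe sets, and 2 were at least 2-fold lower, against 11.9% and 6.36%. A ratio below 0 was seen for 17 of 38, against 53.2% of all measured and 34.9% of bright probe sets. The number above 0 moved with the scaling, as did the share of all measured probe sets above 0: from 21 loci and 46.8% it went to 31 and 65.7% when arrays were scaled to equal medians, and to 33 and 70.9% when scaled on the spiked hybridization controls. Under both of these the median of the loci stayed 0.16 above that of all measured probe sets. That was nearly fixed beforehand, since both multiply each whole array by a single factor. Under quantile normalization 15 loci and 52.2% of all measured probe sets were above 0, and the median of the loci was -0.13, or -0.17 relative to all.

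At the high end stood AT4G15000, which encodes RPL27, with signals of 1229.5 in NSNP and 3263 in NSPS, a ratio of 1.41. It was followed by AT1G18540 (RPL6) at 1.28, AT2G39390 (RPL35, at the rim of the exit tunnel) at 1.25, AT1G80750 (RPL7) at 1.22 and AT3G09630 (RPL4, whose long loop lines the exit tunnel) at 1.18. At the low end were AT5G60670 (RPL12, at the base of the stalk that receives elongation factors), with 6096 in NSNP and 2502 in NSPS, a ratio of -1.28, AT1G67430 (RPL17, a tunnel protein) at -0.92, AT2G44120 (RPL7) at -0.75 and AT5G22440 (RPL10a, the protein of the L1 stalk by which spent transfer RNA leaves) at -0.69. All of these signs were the same under the 3 other scalings.

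Under dehydration the same comparison gave lower ratios for nearly the whole set. The median was -0.62, or -0.58 relative to all measured probe sets, and the highest value was 0.88. Of the 38 loci, 29 were below 0, against 52.1% of all measured and 41.2% of bright probe sets. At least 2-fold lower were 7 loci, against 11.6% and 8.51%, and none was at least 2-fold higher, where 9.06% of all measured and 12.5% of bright probe sets were. Under median scaling 26 loci were below 0 (38.9% of all measured probe sets), 3 were at least 2-fold lower (6.88%) and 3 at least 2-fold higher (15.6%). Quantile normalization gave 33 below 0 (48.6%), 10 at least 2-fold lower (9.68%) and none higher (9.31%). Hybridization control scaling gave 27 (46.7%), 4 (9.49%) and none (11.5%).

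At the low end AT2G44120 (RPL7) had 8754 in DSNP and 3232 in DSPS, a ratio of -1.44. Further low loci were AT5G22440 (RPL10a) at -1.30, AT1G27400 (RPL17) at -1.12 and AT5G23900 (RPL13) at -1.08. The highest was AT1G80750 (RPL7), with 563 in DSNP and 1037 in DSPS, a ratio of 0.88. The others at this end were AT5G02870 (RPL4) at 0.80, AT2G39390 (RPL35) at 0.76, AT3G09630 (RPL4) at 0.42 and AT3G16780 (RPL19) at 0.36. Both RPL4 genes thus stayed above 0 in both conditions and under each scaling tried.

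**Figure D1:**
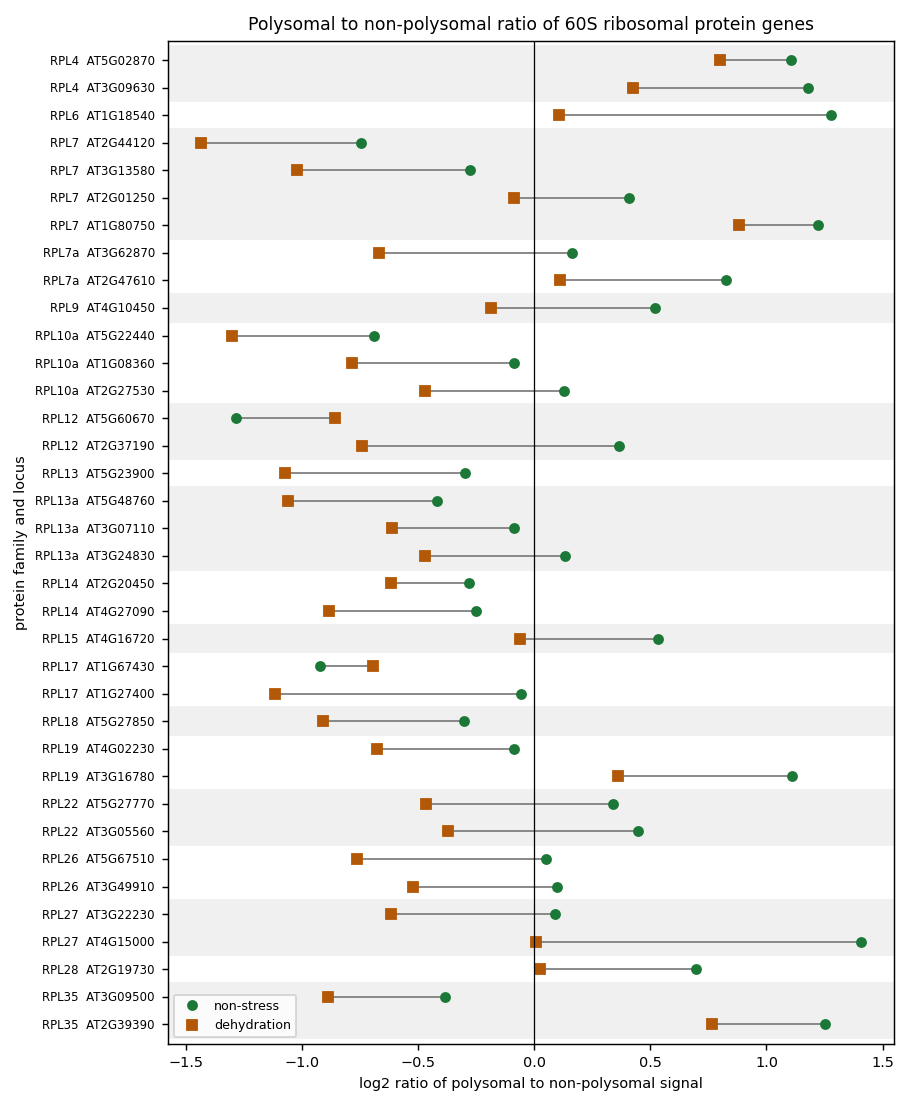
Log2 ratio of polysomal to non-polysomal signal (horizontal axis) for 36 of the 38 measured loci, grouped by protein family. Green circles are non-stress and orange squares dehydration, 1 array pair each without error bars, and in 34 of the 36 loci shown the square lies to the left of the circle.

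The order of the loci was largely kept between conditions. Across the 38 loci the ratios without stress and under dehydration were correlated (Pearson's r 0.90, Spearman's rho 0.90), as they were across all measured probe sets (0.81 and 0.80). The points share their arrays and the loci are not independent, so these are descriptions. A ratio above 0 without stress and below 0 under dehydration was found for 12 loci, against 8.91% of all measured and 11.3% of bright probe sets, and the opposite crossing for none, against 10.1% and 4.93%. Both ratios were above 0 for 9 loci, against 37.9% and 53.8%, and both below 0 for 17, against 43.1% and 29.9%. These counts depended on where the scaling put 0. The crossing from above to below 0 was found for 19, 10 and 22 loci under median, quantile and hybridization control scaling, where 11.6%, 9.8% and 20.7% of all measured probe sets met it. Both ratios were above 0 for 12, 5 and 11 loci (54.2%, 42.4% and 50.2% of all) and both below 0 for 7, 23 and 5 (27.3%, 38.8% and 26%).

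The change of the polysomal ratio (dehydration minus non-stress) asked which transcripts lost or gained polysomal signal relative to non-polysomal signal. It was lower for 36 of 38 loci, against 48.9% of all measured and 63.9% of bright probe sets. The median change was -0.64, with its middle 50% of loci between -0.75 and -0.54, and relative to all measured probe sets it was -0.65. The bright probe sets had a median of -0.14. At least 2-fold lower were 4 loci, against 1.62% of all measured and 1.86% of bright probe sets, and none was at least 2-fold higher (2.8% and 1.57%). With arrays scaled to equal medians 36 loci lay below 0 (58.7% of all measured probe sets), with a median of -0.75, and 4 reached a 2-fold lower ratio (2.58% of all). Quantile normalization gave 36 (51.9%), -0.51 and 2 (1.88%). Scaling on the hybridization controls moved the median of all measured probe sets to -0.36 and gave 37 (78.5% of all measured and 88.7% of bright probe sets), -1.01 and 20 (7.64% and 10.7%). Relative to all measured probe sets the median change was -0.65 under median and hybridization control scaling. Both scalings multiply each whole array by a single factor, so they could hardly move this relative value. Quantile normalization, which could move it, gave -0.49.

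The lowest change was that of AT4G15000 (RPL27), whose ratio went from 1.41 to 0.01, a change of -1.40. Its signals were 1229.5 in NSNP, 3263 in NSPS, 1679 in DSNP and 1689 in DSPS, so that the polysomal excess seen without stress was not seen under dehydration. AT1G18540 (RPL6) had 1968.5, 4774.5, 3262 and 3512 on the same arrays, a change of -1.17. AT2G37190 (RPL12) changed by -1.11, AT1G27400 (RPL17) by -1.06 and AT3G62870 (RPL7a) by -0.83.

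Above 0 were 2 loci. AT5G60670 (RPL12) had 6096 in NSNP, 2502 in NSPS, 3474 in DSNP and 1918.5 in DSPS, a change of 0.43. AT1G67430 (RPL17) had 11744, 6196, 8397 and 5179, a change of 0.23 that became -0.15 under hybridization control scaling. In both, the polysomal signal was lower under dehydration as in most members, and the non-polysomal signal was lower by more. Both also had ratios without stress near the low end, but the change is computed by subtracting that same ratio. A low ratio without stress therefore raises the change by construction. The next highest changes, all below 0, were those of AT5G02870 (RPL4) at -0.31, AT2G20450 (RPL14) at -0.34 and AT1G80750 (RPL7) at -0.34.

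**Figure D2:**
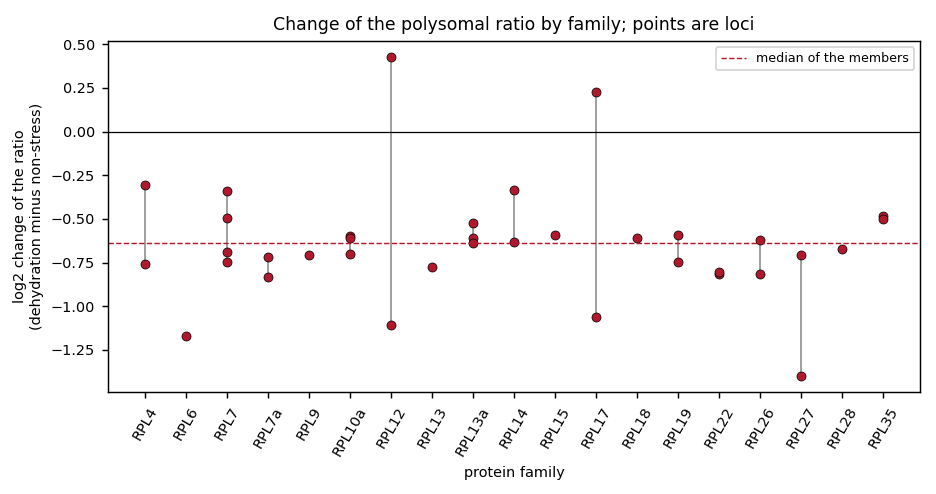
Log2 change of the polysomal ratio, dehydration minus non-stress (vertical axis), for 36 measured loci of 19 protein families (horizontal axis). Points are loci, vertical lines join paralogues and the dashed line is the median of -0.64 over all 38; only RPL12 and RPL17 have a locus above 0.

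The change of ratio was then taken apart into the effect of dehydration in either fraction. In polysomal RNA 36 of 38 loci had a lower signal under dehydration, against 50.3% of all measured and 56.2% of bright probe sets. The median was -0.48, with a range from -1.35 to 0.39. At least 2-fold lower were 3 loci, against 5.58% and 5.86%, and none was at least 2-fold higher (6.36% and 6.22%). The shift was thus broad and mostly under 2-fold. The number below 0 was 35 or 36 under the other scalings, where 45.9% to 55.5% of all measured probe sets were below 0.

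AT5G67510 (RPL26, beside the tunnel exit) went from 1535 in NSPS to 601 in DSPS, an effect of -1.35. AT3G16780 (RPL19) went from 1077 to 423.5, also -1.35. AT3G22230 and AT4G15000, the RPL27 pair, were at -1.003 and -0.95, and AT1G27400 (RPL17) at -0.98. The members above 0 were AT4G02230 (RPL19), from 2208 to 2889 (0.39), and AT3G13580 (RPL7), from 983 to 1160.3 (0.24). AT4G16720 (RPL15) was near level at -0.05, with 0.01 under median scaling and 0.02 under quantile normalization, followed by AT3G62870 (RPL7a) at -0.19 and AT2G19730 (RPL28, a protein that baker's yeast lacks) at -0.22.

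In non-polysomal RNA the effects of dehydration lay on both sides of 0, with a median of 0.13. Of 38 loci 12 were below 0, against 51.5% of all measured and 44.7% of bright probe sets. None was at least 2-fold lower (4.56% and 3.65%) or at least 2-fold higher (4.32% and 5.29%). Of the other scalings, equal medians put 9 loci below 0 (37.7% of all measured probe sets), quantile normalization 17 (49.5%) and the hybridization controls 7 (28.1%). Highest were AT3G13580 (RPL7), from 1190.1 in NSNP to 2357 in DSNP (0.99), and AT4G02230 (RPL19), from 2347 to 4626 (0.98). AT1G18540 (RPL6) was at 0.73, AT3G62870 (RPL7a) at 0.65 and AT4G16720 (RPL15) at 0.54. Lowest were AT5G60670 (RPL12) at -0.81, AT3G16780 (RPL19) at -0.60, AT5G67510 (RPL26) at -0.54, AT1G67430 (RPL17) at -0.48 and AT2G20450 (RPL14) at -0.46.

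A lower polysomal together with a higher non-polysomal signal under dehydration was found for 24 of 38 loci, against 13.4% of all measured and 19.2% of bright probe sets. The count was 26, 18 and 29 under median, quantile and hybridization control scaling, where 18.1%, 14.9% and 31.6% of all measured probe sets met it. Both fractions were lower for 12 loci (36.9% of all measured and 37% of bright probe sets) and both higher for 2 (35.1% and 36%). No locus was higher in polysomal and lower in non-polysomal RNA (14.5% and 7.79%). Of 72 other measured cytosolic ribosomal protein genes, described below by list, 26 were lower in polysomal and higher in non-polysomal RNA. Another 37 of the 72 were lower in both fractions. The effects in the fractions, which share no array, correlated across the 38 loci with r of 0.68 and rho of 0.68, against 0.73 and 0.65 across all measured probe sets, but both compare the same hybridization days.

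**Figure D3:**
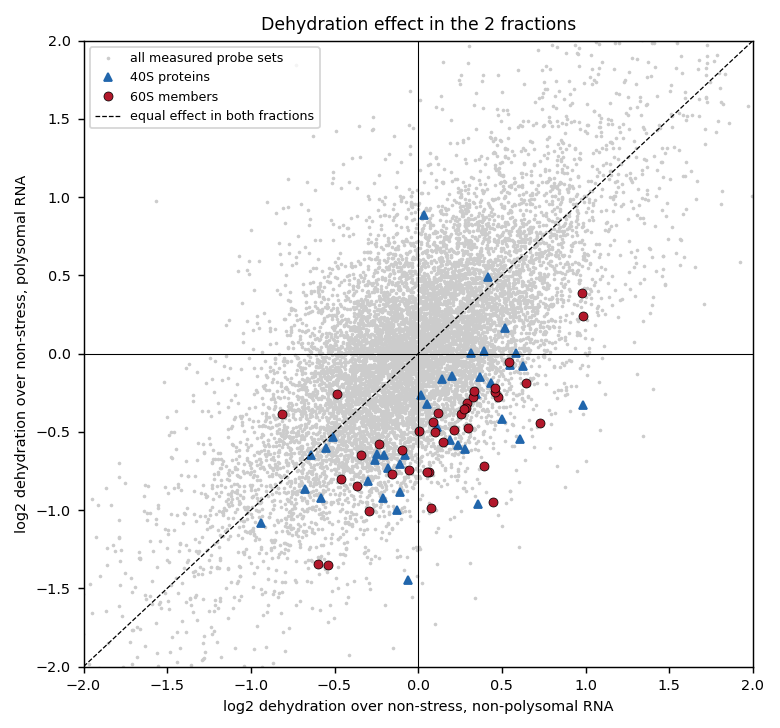
Log2 of dehydration over non-stress signal in non-polysomal RNA (horizontal axis) and in polysomal RNA (vertical axis), with both axes limited to -2 to 2. Red circles are the 38 measured 60S loci, blue triangles the 40S protein genes and grey dots all measured probe sets; 36 of the red circles lie under the dashed line of equal effect, and 24 lie right of 0 and below 0.

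By position on the ribosome, the proteins of the exit tunnel and its rim (RPL4, RPL17, RPL19, RPL22, RPL26 and RPL35) gave 12 measured loci. Their median ratio was 0.22 without stress and -0.50 under dehydration. Their change of ratio had a median of -0.68 and was below 0 for 11 of 12, against 48.9% of all measured and 63.9% of bright probe sets. Their polysomal signal had a median dehydration effect of -0.70, beside -0.41 for the 20 loci of the subunit's remaining proteins. AT1G27400 and AT1G67430 (RPL17) differed in the sign of their change. AT3G05560 and AT5G27770, the RPL22 pair, were nearly alike, with ratios of 0.45 and 0.34 without stress, of -0.37 and -0.47 under dehydration and changes of -0.82 and -0.81. AT3G49910 and AT5G67510 (RPL26) had ratios of 0.10 and 0.05 without stress and changes of -0.62 and -0.81, while their polysomal dehydration effects were -0.35 and -1.35.

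The proteins of the stalks and of the elongation factor site (RPL9, RPL10a and RPL12) gave 6 measured loci. Their ratio under dehydration was below 0 for all 6, against 52.1% of all measured and 41.2% of bright probe sets. Its median was -0.76, although AT4G10450 (RPL9), at -0.19, was at 0.07 under median scaling. The change was below 0 for 5 of 6 (48.9% of all measured and 63.9% of bright probe sets), the exception being AT5G60670 (RPL12). The 3 genes of RPL10a had changes of -0.70 (AT1G08360), -0.60 (AT2G27530) and -0.61 (AT5G22440). AT2G27530 is PGY1, known for its role in leaf polarity, and had signals of 4125.5, 4508, 4417 and 3189.6 on NSNP, NSPS, DSNP and DSPS.

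The remaining 11 families gave 20 measured loci, with a median change of ratio of -0.64. The change was below 0 for all 20, against 48.9% of all measured and 63.9% of bright probe sets. All 20 were also below 0 under each other scaling, where 51.9% to 78.5% of all measured probe sets were. Here the non-polysomal effect of dehydration was above 0 for 15 of 20 loci, against 48.5% of all measured and 55.3% of bright probe sets. The 3 genes of RPL13a had changes of -0.52 (AT3G07110), -0.61 (AT3G24830) and -0.64 (AT5G48760). AT2G47610 and AT3G62870 (RPL7a) were at -0.72 and -0.83, and AT5G23900 (RPL13) was at -0.78. AT4G27090 (RPL14) was at -0.63, AT5G27850 (RPL18) at -0.61, AT4G16720 (RPL15) at -0.59 and AT2G19730 (RPL28) at -0.67. AT4G10450, the measured RPL9 gene of the preceding group, was at -0.71.

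Paralogues were compared by their ratios and effects, since signals of different probe sets cannot be set against each other. The 14 families with 2 or more measured loci held 23 pairs of paralogues. RPL7 (4 loci), RPL10a and RPL13a (3 loci each) gave several pairs that share loci, so the pairs are not independent. Paralogues often differed in the polysomal ratio itself. Their median absolute difference was 0.68 without stress and 0.59 under dehydration, close to the 0.70 and 0.58 of the 680 pairs from different families, and 14 and 13 of the 23 pairs differed by more than the same-locus SD (0.60 and 0.507). In the change of ratio the median absolute difference of paralogues was 0.15, that of the pairs from different families 0.21, and 3 of 23 pairs exceeded the same-locus SD of 0.596. The dimmer same-locus pairs had a median absolute difference of 0.39 in the change of ratio, wider than that of the paralogues, and of 0.35 and 0.38 in the ratios without stress and under dehydration, narrower than that of the paralogues. No locus had a probe set with the name suffix of shared probes. Probe sequences were not compared, so whether paralogues bind each other's probes was not tested.

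RPL35 shows the contrast. AT2G39390 had 486 in NSNP, 1157 in NSPS, 378 in DSNP and 642 in DSPS, ratios of 1.25 and 0.76. AT3G09500 had 4681, 3582, 4698 and 2539, ratios of -0.39 and -0.89. The first was higher in polysomal RNA and the second lower in both conditions (0.09 without stress for AT3G09500 under hybridization control scaling), yet the changes were -0.49 and -0.50.

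The 4 RPL7 genes had the widest spread of ratios. AT1G80750 had 662 in NSNP, 1546 in NSPS, 563 in DSNP and 1037 in DSPS. AT2G01250 had 5223, 6933, 5665 and 5339, and AT2G44120 had 9087, 5414.5, 8754 and 3232. AT3G13580 had 1190.1, 983, 2357 and 1160.3, and was the RPL7 gene whose signal was higher under dehydration in both fractions. Their ratios without stress were 1.22, 0.41, -0.75 and -0.28, spanning 1.97, and their changes -0.34, -0.49, -0.69 and -0.75, spanning 0.40.

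In RPL19 the paralogues moved apart under dehydration. AT3G16780 had 499 in NSNP, 1077 in NSPS, 329 in DSNP and 423.5 in DSPS, and AT4G02230 had 2347, 2208, 4626 and 2889. The first was lower under dehydration in both fractions (-1.35 polysomal, -0.60 non-polysomal) and the second higher in both (0.39 and 0.98), a difference between paralogues of 1.73 in polysomal and 1.58 in non-polysomal RNA. The changes of ratio were nevertheless -0.75 and -0.59.

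The widest differences in the change of ratio were within RPL12 (1.53), RPL17 (1.29) and RPL27 (0.69), followed by RPL4 (0.45), RPL7 (0.40) and RPL14 (0.30). In RPL12 the ratios differed by 1.65 without stress and by 0.12 under dehydration. AT2G37190 had 2920.5 in NSNP, 3764 in NSPS, 3829 in DSNP and 2292 in DSPS, so its fractions ran opposite ways under dehydration, whereas AT5G60670 was lower in both. In RPL17 AT1G27400 had 3242, 3113, 3416 and 1573, the DSPS signal standing apart from the other 3. In RPL27 AT3G22230 had 1684.6, 1794, 1372.8 and 895.5, with ratios of 0.09 and -0.62 beside the 1.41 and 0.01 of AT4G15000.

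The RPL4 genes had similar ratios without stress (1.18 for AT3G09630 and 1.11 for AT5G02870). AT3G09630 had 2908 in NSNP, 6593 in NSPS, 4052 in DSNP and 5437 in DSPS, and AT5G02870 had 3337, 7182, 2633 and 4583. Their non-polysomal effects of dehydration were 0.48 and -0.34. In RPL14 AT2G20450 had 1465.5, 1207, 1064 and 694 and AT4G27090 had 7222, 6065, 8798 and 4768. Their changes were -0.34 and -0.63, and their non-polysomal effects -0.46 and 0.28.

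**Figure D4:**
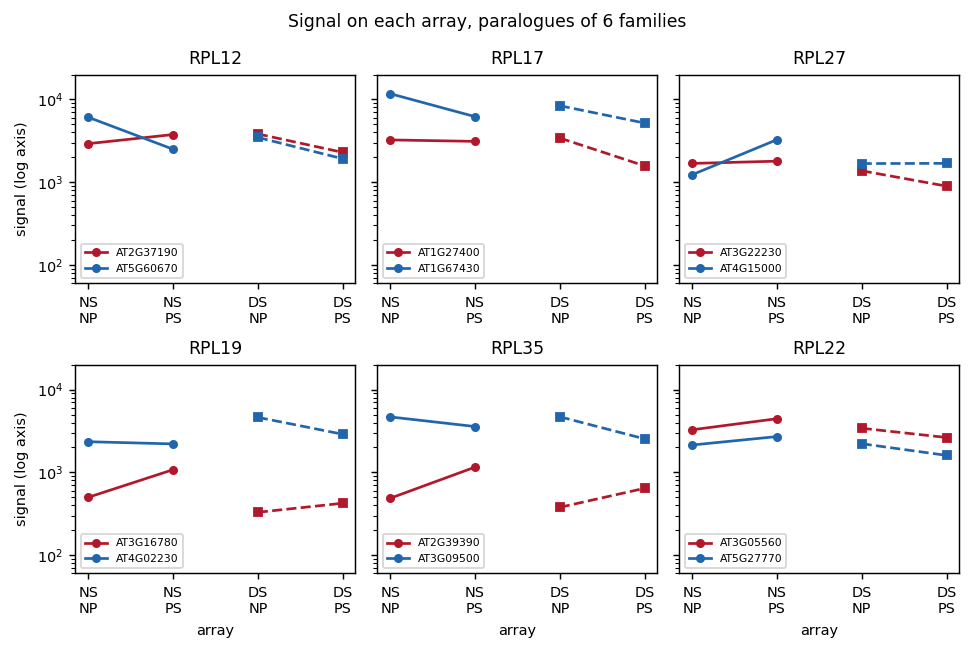
Deposited signal (vertical log axis) on the 4 arrays (NS non-stress, DS dehydration, NP non-polysomal, PS polysomal) for the paralogues of 6 families, 1 array per point. In RPL35 and RPL22 the tilt of the paralogues' lines changes by nearly the same amount between conditions, in RPL12 and RPL17 they do not, and in RPL19 the paralogues differ in the direction of the dehydration effect.

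Other genes of the cytosolic ribosome gave similar values. The change of ratio was below 0 for 38 of 40 measured 40S protein genes (median -0.53), for 10 of 10 stalk P protein genes (-0.49) and for 20 of 22 further 60S protein genes (-0.55). Of all measured probe sets 48.9% were below 0, and of bright ones 63.9%. At least 2-fold lower were 4, 1 and 0 genes of the lists, against 1.62% of all measured and 1.86% of bright probe sets. None was at least 2-fold higher (2.8% and 1.57%). The lowest of the 40S genes were AT4G39200 at -1.39 and AT2G17360 at -1.32, and the highest AT5G39850 at 0.86 and AT3G04230 at 0.07. Of the stalk genes AT3G44590 (-1.30) and AT5G47700 (-0.81) were lowest and AT3G09200 (-0.16) and AT3G11250 (-0.26) highest. Of the further 60S genes AT3G28900 (-0.95) and AT4G17390 (-0.91) were lowest and AT3G02190 (0.69) and AT1G07070 (0.17) highest. No difference between the 60S loci and these lists was tested.

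The lists differed more in the ratios than in their change. Without stress the median was 0.34 for the 40S genes, 0.65 for the stalk genes and -0.25 for the further 60S genes. It was 0.09 for the 38 loci. Under dehydration the medians of these lists were -0.17, -0.20 and -0.73, beside -0.62 for the 38 loci. In non-polysomal RNA the dehydration effect had a median of 0.08 for the 40S genes, 0.01 for the stalk genes and -0.12 for the further 60S genes. In polysomal RNA the medians were -0.55, -0.43 and -0.67, beside -0.48 for the 38 loci.

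Few genes that serve the ribosome were annotated. Of 20 listed translation factors 3 were measured, and their changes were -1.43 for AT5G12110 and -0.92 for AT5G19510, both subunits of elongation factor eEF1B, and -0.17 for EIF4A-2, an initiation helicase. Of 10 listed assembly genes only AT3G05060, which encodes a NOP58-type protein of small nucleolar particles, was measured, at -0.95. Of 5 TOR pathway genes only RAPTOR1, the TOR partner protein, was measured, at 0.23.

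**Figure D5:**
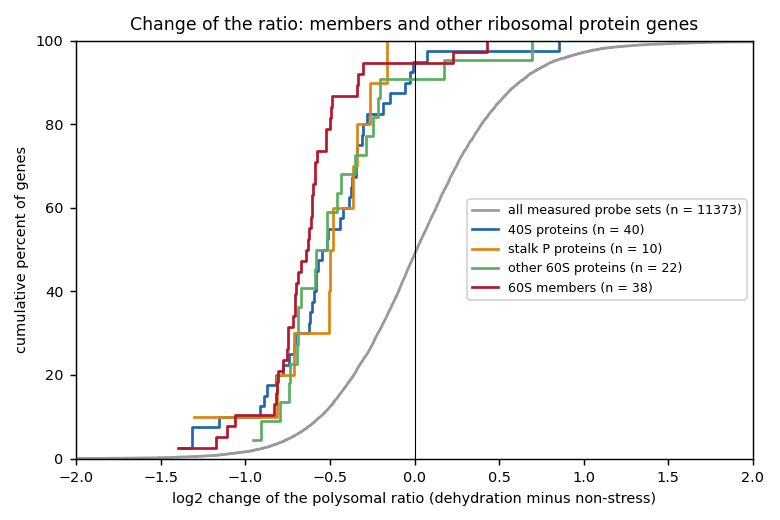
Cumulative percent of genes (vertical axis) against the log2 change of the polysomal ratio (horizontal axis, limited to -2 to 2) for the 38 measured 60S loci, 3 other lists of ribosomal protein genes and all measured probe sets. Apart from the low tail, the lines of the 4 ribosomal lists lie to the left of the grey line, with medians from -0.64 to -0.49 against 0.01. In that tail all measured probe sets reach down to -2.48, and the lists no lower than -1.40.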

How the data were processed

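The authors' deposited table holds 1 signal intensity per probe set and array on a linear scale, with a mean of 500 on each array after 2% of values is removed at either end, as found from the values. The chip type and hybridization records are given per the file headers, while the software that made the signals is not given in the sources. Arrays were rescaled to equal trimmed means, signals under 69.9 (the median over arrays of percentile 25) were raised to that limit, and log2 was taken with Python 3.11.15, numpy 2.4.6 and pandas 2.3.3. The 64 control probe sets were left out. Of the other 22746 probe sets, 11373 reached the median mean log2 signal of 7.74.

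In the platform annotation, possibly out of date, 13513 probe sets had 1 gene symbol, 503 had several and 8730 had none here. Loci came from the TAIR10.1 gene table by gene identifier (13436 matched). Families and positions on the subunit were assigned from general knowledge. The members, lists, positions and rules were chosen with earlier results of these data known. Members named are the 5 highest and 5 lowest of each comparison, except that the values of 2 loci counted among the 38 are not reported here, the 6 families with the widest change of ratio, and others by family, and from the other lists the 2 highest and 2 lowest; RPL19, RPL22 and RPL35 were picked for the plot of paralogue signals after their values were seen.

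With 1 array per group no test was run, and the number of arrays limits the precision. The calculations were tested on simulated arrays. Alternatives were 3 scalings, 2 treatments of low signals, 2 filters, 2 choices of probe set and a 1.5-fold limit. Promoter motifs and protein sequences were not analysed here.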

Additional observations from a re-analysis of the deposited data

Results flagged for a closer look

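The effects of dehydration on the 38 measured 60S loci had medians of opposite sign in the fractions, -0.48 in polysomal and 0.13 in non-polysomal RNA. Quantile normalization brought the non-polysomal median to 0.04, only 0.03 above that of all measured probe sets. The polysomal ratio had a median of 0.094 without stress and of -0.62 under dehydration, but quantile normalization turned the first to -0.13, so that both were below 0. With 1 array per group neither difference was tested. No single measured locus had effects of opposite sign that both reached 1.5-fold.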

How the results depend on the processing

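No paired analysis was possible because each group has 1 array, and for the same reason no array could be left out. With arrays scaled to equal medians the 38 loci had a median of 0.46 for the ratio without stress, -0.36 for the ratio under dehydration, -0.75 for the change of ratio and 0.30 for the dehydration effect in non-polysomal RNA. Scaling on the hybridization controls gave 0.57, -0.51, -1.01 and 0.44. Quantile normalization turned the median ratio without stress to -0.13. It gave a median change of -0.51 and a median non-polysomal effect of 0.04. These scalings moved the median of all measured probe sets by up to 0.48. For the ratio without stress 7 (median scaling) and 5 (hybridization controls) loci were below 0, against 34.2% and 29.1% of all measured probe sets. At least 2-fold lower were 1, 4 and 1 under median, quantile and hybridization control scaling (5.81%, 9.91% and 4.9% of all), and 5 at the 1.5-fold limit. The share of all probe sets at 1.5-fold was not computed, so counts at that limit cannot be set against a background. For the ratio under dehydration 3 loci were at least 2-fold lower under median scaling (6.88% of all), 4 under hybridization controls (9.49%) and 21 at the 1.5-fold limit. On the high side were 3 under median scaling (15.6%) and 3 at 1.5-fold. For the change of ratio 2 (1.88% of all), 20 (7.64%) and 27 loci were past the limit on the low side under quantile normalization, hybridization controls and the 1.5-fold limit. For the polysomal effect 5 (6.51%) and 14 were past it under the last 2. For the non-polysomal effect 2 (median scaling, 6.78% of all), 3 (hybridization controls, 9.62%) and 4 (1.5-fold) were past it on the high side. On the low side were 2 at 1.5-fold, and 7 were below 0 under hybridization controls (28.1%). Apart from the alternatives' own construction, the cause was not tested. The sign of a member's value changed under some scaling for 18 of 38 loci in the ratio without stress, 7 in the ratio under dehydration, 1 in the change of ratio, 1 in the polysomal and 10 in the non-polysomal effect. The lower limits, the filters (39 loci with none, 37 at percentile 75) and the choice of probe set moved no median by more than 0.1. All 501 values computed under the alternatives for members at either end of a comparison or in the widest families moved by less than the same-locus SD. Most of these outcomes were fixed beforehand. Each locus had a single probe set, filters leave a value as it is, and no measured locus lay under the lower limit. Median and hybridization control scaling shifted all loci of a comparison alike, by less than that SD. These 501 values therefore say little about robustness. The brighter background, which raised the share of probe sets with a lower change of ratio from 48.9% to 63.9%, was chosen after seeing the data.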

Other observations

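A few other cytosolic ribosomal protein genes stood on the high side of the change of ratio, and they reached it in different ways. AT5G39850, a 40S gene of the RPS9 family, had 1279.9 in NSNP, 1617 in NSPS, 1309 in DSNP and 2992 in DSPS, so its polysomal signal was the one that was higher under dehydration (0.89) and its change was 0.86. AT3G02190, of the RPL39 family, had 661, 404, 693 and 684, a polysomal effect of 0.76 and a change of 0.69. AT1G07070, of the RPL35a family, had 1024, 466, 466 and 239, lower in both fractions by a similar amount (-0.96 polysomal, -1.14 non-polysomal), and a change of 0.17. These were picked as the highest of their lists, with no test.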
